A study of Mus musculus with 20 samples.

Results

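Kif19a, Cckbr, Myocd and Tmem26 are 4 genes that had been singled out, on the P21 samples described here, for transcript levels in mutant retina well above those of wild type. They were found by symbol, as 4 of the 1497 genes in the table for postnatal day 21 (P21), and none of them is among the 566 genes in the table for postnatal day 2 (P2). Their P21 levels are therefore given as a description, with no test. RNA from whole retina of C57BL/6J mice was sequenced in 5 genotypes. CrxRip/+ has 1 copy and CrxRip/Rip has 2 copies of the CrxRip allele, a dominant mutation in Crx, the homeobox gene of photoreceptors. Crx-/- lacks Crx function, Nrl-/- lacks the rod-determining factor Nrl, and wild type (WT) is the control of all 4 mutants. Each genotype had 2 samples per age, each pooled from 2 frozen retinas, which gives 20 samples in all. The labels do not say how the retinas of one sample relate to those of another, so any p-value here measures the spread between these samples only. Values are FPKM, fragments counted per transcript, scaled for transcript length and library size, which the authors rounded to 1 decimal.

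Crx and Nrl encode transcription factors that switch on the genes of light detection in photoreceptors. Nrl directs photoreceptor precursors to become rods rather than cones, and Crx works together with it and with its relative Otx2. None of the 4 genes described here is known chiefly from photoreceptors. Kif19a encodes a kinesin that shortens microtubules at the tips of motile cilia and so limits their length. Cckbr encodes the receptor for gastrin and cholecystokinin, a G protein-coupled receptor of stomach and nervous system. Myocd encodes myocardin, the coactivator through which serum response factor (SRF) turns on heart and smooth muscle genes. Tmem26 encodes a membrane protein used as a surface marker of beige fat cells.

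Positions are from the GENCODE annotation of genome build GRCm38, matched by RefSeq transcript. The build to which the authors aligned is not given in the sources used here. Kif19a (NM_001102615) lies on chromosome 11 from 114765389 to 114790575 on the plus strand, with 20 exons and a transcript of 3433 bases that codes for 997 residues. Myocd (NM_146386) is on the same chromosome, from 65176561 to 65269941 on the minus strand, 49.5 Mb away, with 13 exons, 4935 transcript bases and 935 residues. Cckbr (NM_007627) occupies 105425731 to 105436339 of chromosome 7 on the plus strand, with 5 exons, 2573 transcript bases and 453 residues. Tmem26 (NM_177794) runs from 68723746 to 68782650 of chromosome 10 on the plus strand, with 6 exons, 5048 transcript bases and 366 residues. No GENCODE gene overlaps any of the 4 models.

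Promoter sequence for 2 of the 4 genes, Cckbr and Tmem26, is in the RefSeq table used here. The stretches below lie upstream of the annotated start and are shown so that the motifs of the factors altered in these mutants can be looked for in them. Capitals mark the E-box, CANNTG, the site bound by basic helix-loop-helix factors.
Cckbr, GRCm38.p6, plus strand, chr7:105425481-105425675: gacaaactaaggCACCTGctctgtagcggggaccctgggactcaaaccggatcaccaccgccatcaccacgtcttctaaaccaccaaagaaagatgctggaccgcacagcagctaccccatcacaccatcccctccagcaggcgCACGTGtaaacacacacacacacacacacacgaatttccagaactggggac
Tmem26, GRCm38.p6, plus strand, chr10:68723496-68723645: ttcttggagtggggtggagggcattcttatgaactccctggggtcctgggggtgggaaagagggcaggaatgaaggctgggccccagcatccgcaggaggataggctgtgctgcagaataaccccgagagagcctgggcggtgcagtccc
In the whole promoter window of 300 bases, read on both strands, neither gene held TAATCC, the core that Crx and Otx2 bind, or TGCTGA, the core of the Nrl site. TAATCC occurs in 7.06% of the 32851 mouse promoters of that length and TGCTGA in 19.5%. The window held 2 E-boxes at Cckbr and 1 at Tmem26, the last of them outside the stretch shown, and 72.3% of all promoters hold at least 1. The absence of a motif says only that its letters are not in this window.

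The genotypes were read first from Nrl itself. Nrl was at 0.2 ± 0 FPKM in Nrl-/- at P21, against 446.8 ± 27.2 FPKM in WT (SD, n = 2 each, as for all errors below). It was also at 0.65 ± 0.354 FPKM in CrxRip/+ and 0.15 ± 0.0707 FPKM in CrxRip/Rip, and at 84.6 ± 3.68 FPKM in Crx-/-. Nrl at P21 thus did not set Nrl-/- apart from the CrxRip genotypes. At P2 it did, with 0.1 ± 0 FPKM in Nrl-/-. The P2 means of CrxRip/+, CrxRip/Rip, Crx-/- and WT were 68.0 ± 7.14, 39.9 ± 4.74, 77.3 ± 6.08 and 75.2 ± 8.2 FPKM. At P21 the Crx transcript was at 293 ± 25.3 FPKM in CrxRip/+, 196.4 ± 31.6 FPKM in CrxRip/Rip and 169.6 ± 2.47 FPKM in Crx-/-, against 347.3 ± 4.81 FPKM in WT, a value over the whole transcript that does not check either allele. The 11 rod markers of the tissue summed to 336.2 to 1525.7 FPKM over the 8 mutant samples, against 16602.4 and 17630.4 FPKM in WT. The summed FPKM of the P21 table ran from 21569.4 to 55335.3 per sample, and read depth is unknown. In whole tissue, fewer cells of a type and less RNA per cell cannot be told apart, and the same holds for more.

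Kif19a was highest in the 2 CrxRip genotypes. Its level was 26.9 and 20.2 FPKM in CrxRip/+, 27.0 and 48.6 FPKM in CrxRip/Rip, 5.6 and 5.5 FPKM in Crx-/- and 3.0 and 3.4 FPKM in Nrl-/-, against 1.1 and 0.7 FPKM in WT. All 8 mutant samples lay above both WT samples, and all 4 CrxRip samples lay above every other sample. The mean of 37.8 ± 15.3 FPKM in CrxRip/Rip was 42.0 times that of WT, the mean of 23.5 ± 4.74 FPKM in CrxRip/+ was 26.2 times, the 5.55 ± 0.0707 FPKM of Crx-/- was 6.17 times and the 3.2 ± 0.283 FPKM of Nrl-/- was 3.56 times the WT mean of 0.9 ± 0.283 FPKM. CrxRip/Rip and CrxRip/+ did not overlap, but the gap of 14.2 FPKM between their means was smaller than their combined SD of 16.0 FPKM, because the 2 CrxRip/Rip samples differed widely. The steps from CrxRip/+ to Crx-/-, to Nrl-/- and to WT were each larger than the combined SD of the neighbours.

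The 2 CrxRip/Rip samples that differed in Kif19a also differed in lens transcripts, and in other lists. The summed level of 3 lens crystallins, 3 of 11 lens markers in the table, was 51.8 FPKM in CrxRip/Rip replicate 2, the sample with 48.6 FPKM of Kif19a, and 0.3 FPKM in replicate 1. WT replicate 1 held 36.8 FPKM of the same crystallins and 1.1 FPKM of Kif19a, and the remaining 7 samples held 0.2 to 9.0 FPKM. CrxRip/Rip replicate 1 had 27.0 FPKM of Kif19a. In CrxRip/Rip replicates 1 and 2, pigment epithelium markers summed to 48.2 and 66.0 FPKM and Muller glia markers to 45.6 and 25.7 FPKM. Tmem26 ran the other way from Kif19a there, at 13.2 and 7.7 FPKM. The part of lens transcripts in the Kif19a levels was not tested.

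Cckbr had a different order. It measured 47.6 and 46.0 FPKM in CrxRip/+, 24.9 and 30.6 FPKM in CrxRip/Rip, 24.3 and 26.7 FPKM in Crx-/- and 51.3 and 44.3 FPKM in Nrl-/-, against 3.0 and 4.5 FPKM in WT. The mutants fell into an upper pair, Nrl-/- and CrxRip/+, and a lower pair, CrxRip/Rip and Crx-/-, with overlap inside each pair and none between the pairs. Means were 46.8 ± 1.13 FPKM in CrxRip/+ (12.5 times WT), 27.8 ± 4.03 FPKM in CrxRip/Rip (7.4 times), 25.5 ± 1.7 FPKM in Crx-/- (6.8 times) and 47.8 ± 4.95 FPKM in Nrl-/- (12.7 times), against 3.75 ± 1.06 FPKM in WT. Within each pair the gap was smaller than the combined SD (1.0 against 5.08 FPKM above, 2.25 against 4.37 FPKM below). CrxRip/Rip, with 2 copies of the allele, was at 0.593 times the level of CrxRip/+, with 1 copy, a gap of 19.0 FPKM set against a combined SD of 4.19 FPKM. Cckbr was the member with the highest WT level, and 566 of the 1497 genes, or 37.8%, had a lower WT mean.

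Myocd was the member nearest to absent in WT. Its level was 11.4 and 9.2 FPKM in CrxRip/+, 7.7 and 10.9 FPKM in CrxRip/Rip, 4.9 and 4.9 FPKM in Crx-/- and 5.6 and 6.1 FPKM in Nrl-/-, against 0.1 and 0.1 FPKM in WT. Every mutant sample was above both WT samples, the 2 CrxRip genotypes overlapped, and both lay above Nrl-/-, which lay above Crx-/-. Only 6 genes of the table, 0.401%, had a lower WT mean. Because 0.1 FPKM is also the rounding step, the ratios to WT are loose. The mean of 10.3 ± 1.56 FPKM in CrxRip/+ was 103 times the WT value, with 68.3 to 207 allowed by rounding alone, and the 9.3 ± 2.26 FPKM of CrxRip/Rip was 93 times it (61.7 to 187). For Crx-/- (4.9 ± 0 FPKM) the ratio was 49 (32.3 to 99) and for Nrl-/- (5.85 ± 0.354 FPKM) it was 58.5 (38.7 to 118). Between mutants, where rounding matters less, CrxRip/+ was at 2.1 times and CrxRip/Rip at 1.9 times the Crx-/- level.

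Tmem26 was the exception among the 4, since it was not raised in Crx-/-. It measured 10.9 and 9.0 FPKM in CrxRip/+, 13.2 and 7.7 FPKM in CrxRip/Rip, 0.3 and 0.4 FPKM in Crx-/- and 3.2 and 3.5 FPKM in Nrl-/-, against 0.7 and 0.6 FPKM in WT. The samples of CrxRip/+, CrxRip/Rip and Nrl-/- all lay above WT, and both Crx-/- samples lay below it. Means were 9.95 ± 1.34 FPKM in CrxRip/+ (15.3 times WT), 10.4 ± 3.89 FPKM in CrxRip/Rip (16.1 times), 0.35 ± 0.0707 FPKM in Crx-/- (0.538 times) and 3.35 ± 0.212 FPKM in Nrl-/- (5.15 times), against 0.65 ± 0.0707 FPKM in WT. The 2 CrxRip genotypes overlapped and did not differ beyond their spread. The gap of 0.3 FPKM between Crx-/- and WT is 3 rounding steps, set against a combined SD of 0.1 FPKM. Tmem26 was thus raised in 3 of the 4 mutants only. Against Crx-/-, the level was 28.4 times in CrxRip/+ and 29.9 times in CrxRip/Rip.

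**Figure D1:**
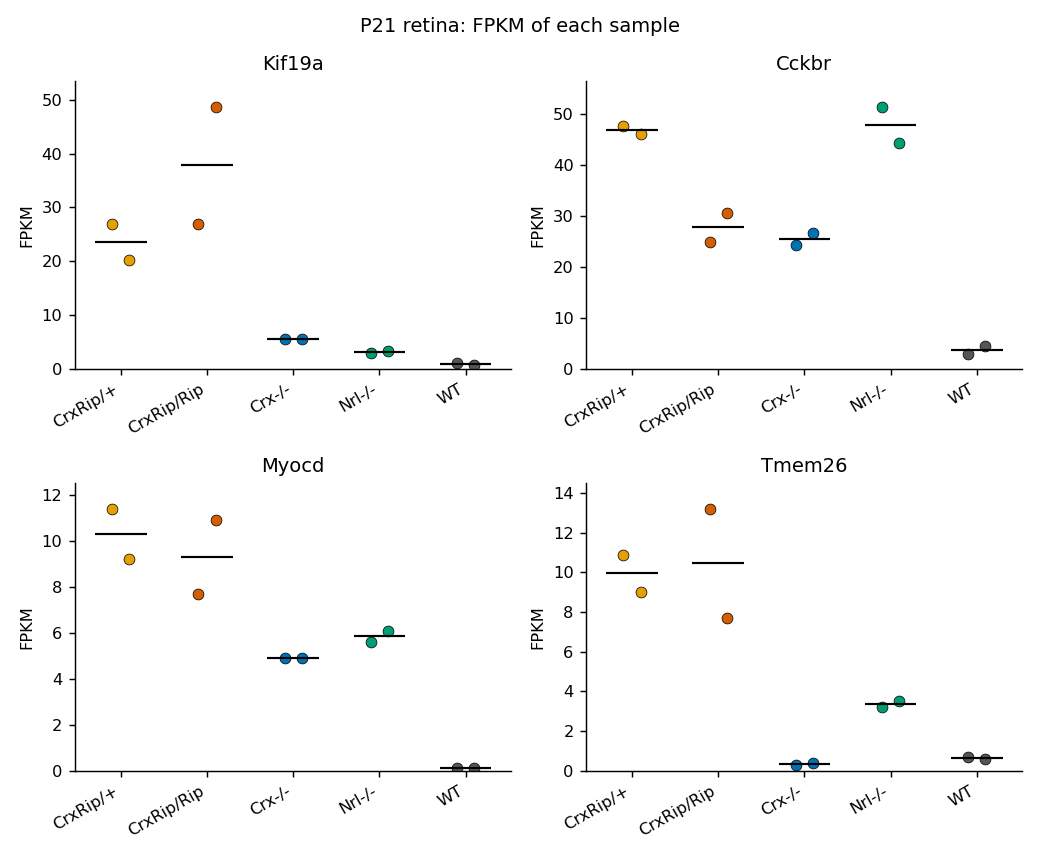
FPKM at P21 of Kif19a, Cckbr, Myocd and Tmem26 in each sample (points) with the genotype mean (bars), on a linear axis per gene, mutants on the left and WT on the right. Kif19a, Myocd and Tmem26 are highest in CrxRip/+ and CrxRip/Rip, Cckbr in CrxRip/+ and Nrl-/-, and Tmem26 in Crx-/- lies below the 0.6 and 0.7 FPKM of WT.

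The members were set against the rest of the table on the scale log2(FPKM + 1), which understates the fold of genes with low FPKM. In CrxRip/+ the difference to WT was 3.69 for Kif19a, 3.35 for Cckbr and for Myocd and 2.73 for Tmem26, which are places 2, 5, 4 and 7 from the top of 1497 genes. All 4 members were among the 26 genes, 1.74% of the table, with a difference of at least 2. In CrxRip/Rip the differences were 4.30, 2.61, 3.21 and 2.75 in the same gene order, at places 3, 19, 10 and 15, and again all 4 were among the 41 genes (2.74%) with at least 2. In Crx-/- they were 1.79, 2.50, 2.42 and -0.29, at places 77, 21, 25 and 838, so that Cckbr and Myocd alone were among the 55 genes (3.67%) past 2. In Nrl-/- they were 1.15, 3.38, 2.64 and 1.40, at places 214, 9, 28 and 155, again with only Cckbr and Myocd among the 65 genes (4.34%) past 2. The median of all genes was 0.13, -0.14, -0.04 and 0.17 in CrxRip/+, CrxRip/Rip, Crx-/- and Nrl-/-. The members had been picked on these contrasts, and their places are read no further.

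**Figure D2:**
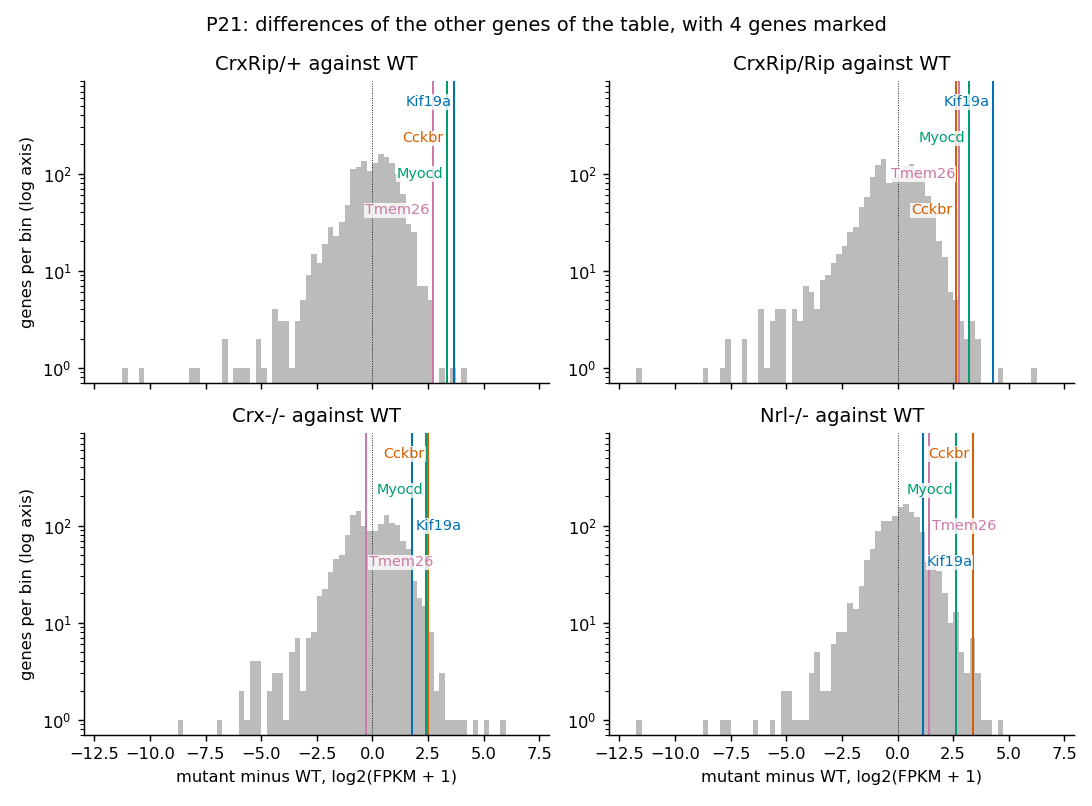
Differences of log2(FPKM + 1), mutant minus WT at P21, for the other genes of the table (grey bars, number of genes per bin on a log axis) with the 4 members as coloured lines. All 4 lines stand at the right edge in CrxRip/+ and CrxRip/Rip, where the differences run from 2.61 to 4.30, and Tmem26 alone lies left of 0 in Crx-/-, at -0.29. The lines of Cckbr and Myocd coincide in CrxRip/+.

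The authors' deposited table gives log2 fold changes to WT. For CrxRip/+, CrxRip/Rip, Crx-/- and Nrl-/- they are 4.5, 5.17, 2.38 and 1.75 for Kif19a, and 3.41, 2.66, 2.53 and 3.57 for Cckbr. In the authors' deposited table Myocd has 6.19, 6.03, 5.09 and 5.46 in the same genotype order, and Tmem26 has 3.82, 3.89, -1.05 and 2.36. Each has the sign of the difference in FPKM. The authors' deposited table lists an adjusted p under 0.05 for Kif19a in 10 of 10 comparisons of genotypes, for Cckbr in 8, for Myocd in 9 and for Tmem26 in 9. With a log2 fold change of at least 1 as well, the authors' deposited table leaves 8, 5, 5 and 9 comparisons. The members had been picked on these samples, so the counts are a description and do not rank them. The authors' deposited table holds only genes past such a threshold, and its fold changes to WT differ from the log2 ratios of mean FPKM by a median of -0.23 to -0.11 (SD over genes 0.02) over the 620 to 698 genes with at least 5 FPKM in both groups, which in WT none of the members reached.

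Patterns of level were counted after the values of the members were seen. None of those below held for all 4, while the difference of at least 2 in CrxRip/+ and in CrxRip/Rip, given above, did. Kif19a, Myocd and Tmem26 were among the 42 genes, 2.81% of the table, whose WT mean was under 1 FPKM while 1 or more mutants averaged at least 5 FPKM. Prtg alone, 0.0668% of the table, met that bound in all 4 mutants, and no member did. Those 3, without Cckbr, were also among the 76 genes (5.08%) for which all 4 CrxRip samples lay above every sample of the other 3 genotypes. Cckbr and Myocd were among the 13 genes (0.868%) with at least 4 times the WT mean in all 4 mutants. Kif19a, Cckbr and Myocd were among 447 genes (29.9%) for which all 8 mutant samples lay above WT, which is common in the table. Tmem26 belonged instead to 19 genes (1.27%) whose samples lay above WT in CrxRip/+, CrxRip/Rip and Nrl-/- and below it in Crx-/-.

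Across the 10 P21 samples the members tracked each other to different degrees. On the log2(FPKM + 1) scale Pearson's r was 0.93 for Cckbr with Myocd, 0.84 for Kif19a with Myocd, 0.81 for Kif19a with Tmem26 and 0.70 for Myocd with Tmem26. It was 0.61 for Kif19a with Cckbr and 0.57 for Cckbr with Tmem26. The samples share genotype and library, and all 4 genes were picked for a high level in mutants, so these values are a description.

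For each member, genes were taken from the 5 of highest Pearson r over the 10 P21 samples. Among those nearest to Kif19a were Ccdc141, a coiled-coil protein (r = 0.991), Radil, a Rap effector of cell adhesion (0.986), Fam211a (0.974) and Hey1, a repressor induced by Notch (0.968). Ccdc141 had 22.1 ± 5.66 FPKM in CrxRip/+, 26.9 ± 8.13 FPKM in CrxRip/Rip, 7.9 ± 0.566 FPKM in Crx-/- and 7.0 ± 0.141 FPKM in Nrl-/-, against 3.75 ± 0.354 FPKM in WT. It thus had the same order of genotypes as Kif19a with smaller steps, and CrxRip/Rip replicate 2 was again its highest sample at 32.6 FPKM. Radil ran from 11.2 ± 0.919 FPKM in CrxRip/+ and 12.4 ± 0.849 FPKM in CrxRip/Rip through 7.55 ± 0.212 FPKM in Crx-/- and 6.8 ± 0.283 FPKM in Nrl-/-, against 5.0 ± 0.141 FPKM in WT.

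Nearest to Cckbr were Prmt8, a membrane-bound arginine methyltransferase of neurons (r = 0.988), Zfand3 (0.98), Crybg3 (0.98), the tetraspanin Tspan9 (0.978) and Elfn2, a synaptic membrane protein (0.973). Prmt8 had 39.8 ± 2.55 FPKM in CrxRip/+, 26.5 ± 3.04 FPKM in CrxRip/Rip, 23.0 ± 0.849 FPKM in Crx-/- and 36.2 ± 0.778 FPKM in Nrl-/-, against 9.55 ± 1.06 FPKM in WT. Its CrxRip/+ and Nrl-/- samples lay above those of CrxRip/Rip and Crx-/-, as for Cckbr, but without overlap inside either pair. Elfn2 had 29.0 ± 3.32, 18.9 ± 1.41, 17.6 ± 1.84 and 24.3 ± 0.141 FPKM in CrxRip/+, CrxRip/Rip, Crx-/- and Nrl-/-, against 8.7 ± 0.849 FPKM in WT. Elfn2 split into the same pairs, with overlap inside the lower pair only. In both genes CrxRip/+ was above Nrl-/-, unlike the means of Cckbr.

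Nearest to Myocd were Six6, a homeobox factor of eye development (r = 0.988), Ttyh2, a membrane protein of the tweety family (0.979), Mrps23, a subunit of the mitochondrial ribosome (0.978), Traf3ip2, an adaptor of interleukin-17 receptors (0.975), and Tmem243 (0.971). Six6 had 40.0 ± 1.63 FPKM in CrxRip/+, 36.1 ± 1.2 FPKM in CrxRip/Rip, 30.4 ± 1.48 FPKM in Crx-/- and 34.1 ± 2.83 FPKM in Nrl-/-, against 10.4 ± 0.778 FPKM in WT. Its order of genotype means matched that of Myocd, but Six6 was well above 1 FPKM in WT, and the WT means of the 5 genes ran from 1.3 to 11.0 FPKM.

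Nearest to Tmem26 were Arid3b, a DNA-binding protein (r = 0.96), Ltbp4, which binds latent TGF-beta (0.955), Trim43c (0.948), Plk5 of the polo-like kinase family (0.945) and Hrasls, an enzyme of phospholipid metabolism (0.93). Trim43c had 6.8 ± 0.141 FPKM in CrxRip/+, 5.35 ± 0.354 FPKM in CrxRip/Rip, 0.35 ± 0.0707 FPKM in Crx-/- and 0.95 ± 0.0707 FPKM in Nrl-/-, against 0.45 ± 0.0707 FPKM in WT. It was the gene of this set whose levels came nearest to those of Tmem26 in size. Arid3b had 33.8 ± 3.25, 34.4 ± 0.566, 10.1 ± 0.0707 and 26.9 ± 1.27 FPKM in CrxRip/+, CrxRip/Rip, Crx-/- and Nrl-/-, against 14.3 ± 1.27 FPKM in WT, and so was below WT in Crx-/- as Tmem26 was. Trim43c belongs to a family of near-identical copies, and how the authors' counting shared reads among copies is not given in the sources used here.

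**Figure D3:**
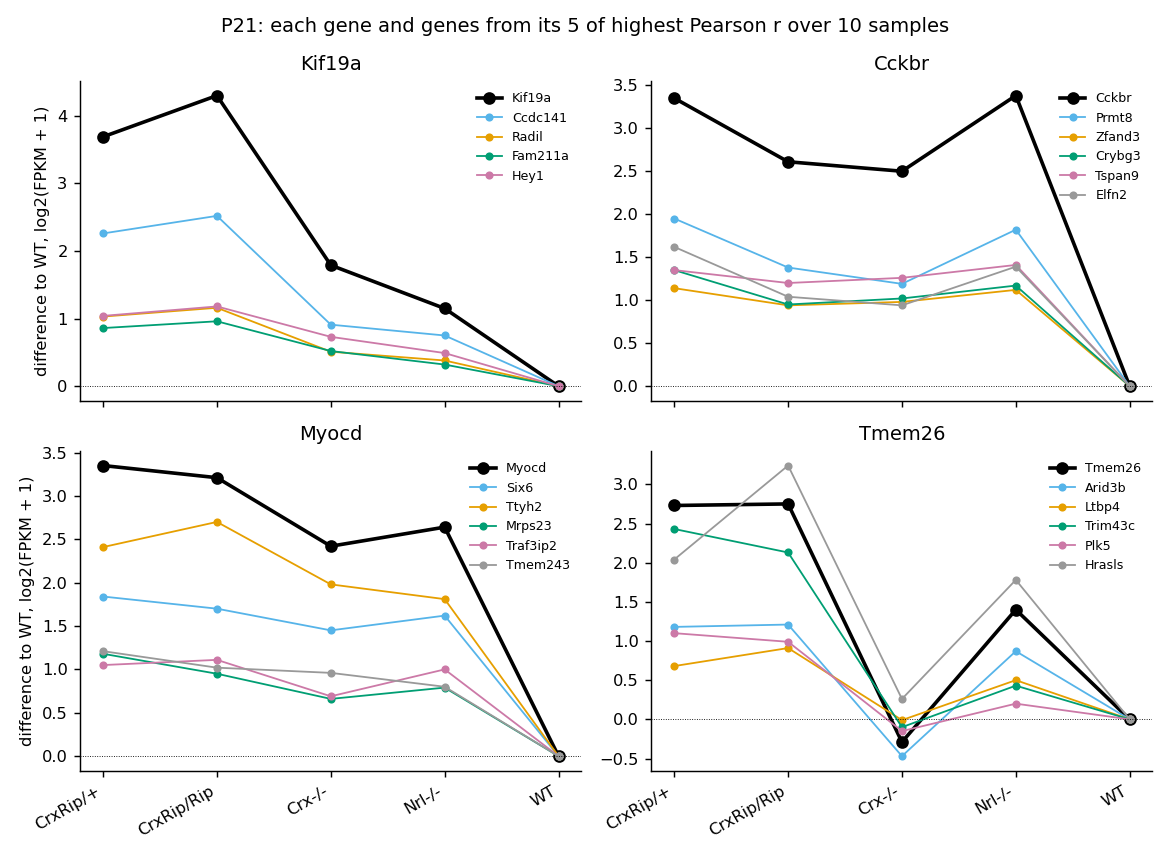
Difference to WT in log2(FPKM + 1) at P21 for each member (thick black line) and genes from the 5 of highest Pearson r with it, 4 of them for Kif19a, by genotype, with WT at 0 on the right. Most thin lines lie nearer to 0 than the member's, while Hrasls lies above Tmem26 in CrxRip/Rip (3.24 against 2.75), in Crx-/- and in Nrl-/-.

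The position of the members in the genome was not used to choose them. Of the 16 protein-coding genes that are the 2 nearest on each side, 4 are in the P21 table, against 6.78% of all 21900 RefSeq protein-coding genes, and 1 is in the P2 table. Of these 4, 2 lie before Kif19a on its own strand. Ttyh2, 44.4 kb away and also named above for Myocd, had 73.1 and 53.9 FPKM in CrxRip/+, 64.5 and 91.0 FPKM in CrxRip/Rip, 47.5 and 45.3 FPKM in Crx-/- and 44.2 and 37.8 FPKM in Nrl-/-, against 11.8 and 10.2 FPKM in WT. Its order of genotype means was that of Kif19a, with the same sample highest and no mutant sample within the WT range. Dnaic2, a dynein intermediate chain of motile cilia 7.5 kb from Kif19a, had 5.2 and 6.9 FPKM in CrxRip/+, 4.5 and 3.8 FPKM in CrxRip/Rip, 1.9 and 1.8 FPKM in Crx-/- and 2.4 and 2.3 FPKM in Nrl-/-, against 2.8 and 2.5 FPKM in WT. Its samples lay above WT in the 2 CrxRip genotypes and below it in the other 2 mutants. The step in Nrl-/- was small, with 2.4 FPKM at most against 2.5 FPKM or more in WT. It was not called in the fit described below, and the call in Crx-/- was lost when 1 sample was left out.

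A further neighbour, Btbd17, was added after its values were seen, because its RefSeq span overlaps that of Kif19a on the opposite strand while the GENCODE models end 0.6 kb apart. Btbd17 had 2.5 and 1.8 FPKM in CrxRip/+, 3.4 and 6.3 FPKM in CrxRip/Rip, 0.4 and 0.7 FPKM in Crx-/- and 0.4 and 0.6 FPKM in Nrl-/-, against 0.2 and 0.1 FPKM in WT. Its highest sample was that of Kif19a, and its mean was likewise highest in CrxRip/Rip and next in CrxRip/+, at lower FPKM in every sample. Crx-/- and Nrl-/- overlapped, with means of 0.55 ± 0.212 and 0.5 ± 0.141 FPKM, so the order of those 2 is not resolved. Neither was called against WT in the fit described below. The libraries were directional per the labels, but whether the counting used strand is not given in the sources used here, so reads of the 2 genes where they overlap may not have been told apart.

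**Figure D4:**
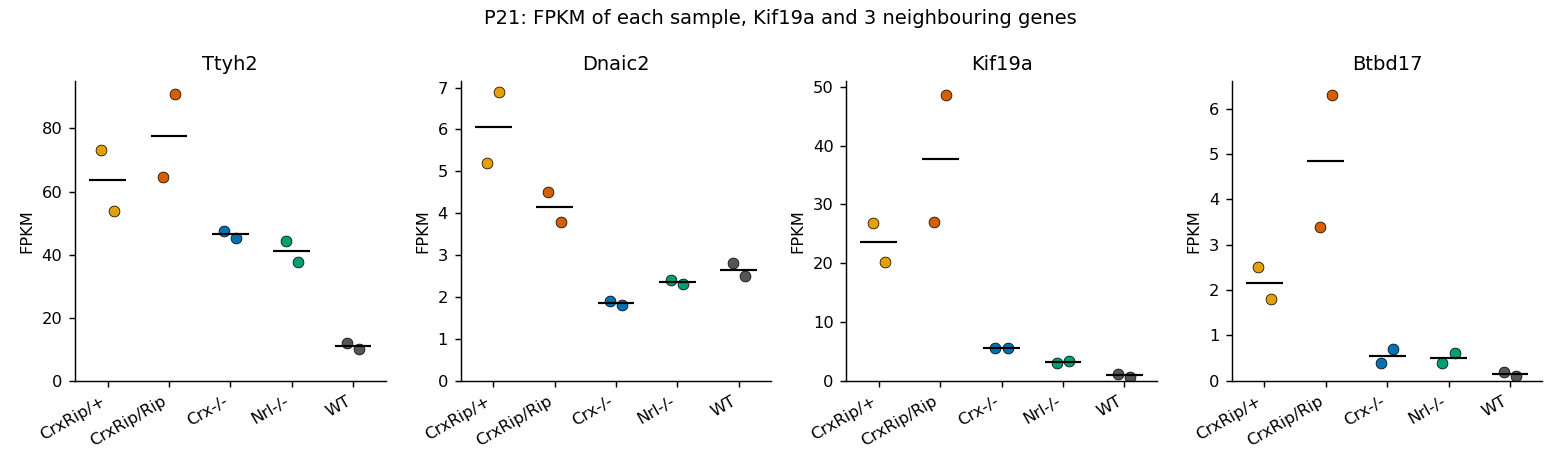
FPKM at P21 of each sample (points) and genotype means (bars) for Ttyh2, Dnaic2, Kif19a and Btbd17, in their order along the chromosome, mutants on the left and WT on the right. Kif19a, Ttyh2 and Btbd17 are highest in CrxRip/Rip replicate 2, at 48.6, 91.0 and 6.3 FPKM, and Dnaic2 is above WT in CrxRip/+ and CrxRip/Rip only.

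Cckbr and Tmem26 each had 1 near neighbour in the P21 table and Myocd had none. Cavin3, listed under its older symbol Prkcdbp and 43.7 kb from Cckbr, averaged 2.0 ± 0.141 FPKM in CrxRip/+, 2.5 ± 0 FPKM in CrxRip/Rip, 3.55 ± 0.0707 FPKM in Crx-/- and 1.65 ± 0.212 FPKM in Nrl-/-, against 1.3 ± 0 FPKM in WT. It was highest in Crx-/- and next in CrxRip/Rip, which formed the lower pair of mutants for Cckbr. Rhobtb1, 368.8 kb from Tmem26, had 3.9 ± 0.141, 2.2 ± 0.849, 3.3 ± 0 and 5.0 ± 0.707 FPKM in CrxRip/+, CrxRip/Rip, Crx-/- and Nrl-/-, against 2.7 ± 0.566 FPKM in WT, and did not share the order of Tmem26.

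The genes that work with each member were then counted in lists that leave the members out. Calls are adjusted limma p-values under 0.05 (Benjamini-Hochberg, all genes of the table). The table holds only genes the authors found changed, so most of it is called. For the mutants CrxRip/+, CrxRip/Rip, Crx-/- and Nrl-/-, in that order, 74.5%, 80.6%, 81.3% and 72.2% of the 1497 genes were called in either direction. Higher calls made up 39.5%, 36.3%, 39.8% and 40.4%, and lower calls 35.0%, 44.3%, 41.5% and 31.8%.

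Of 40 motile cilium genes, 7 were in the P21 table. In CrxRip/+ 4 rose and 2 fell, in CrxRip/Rip 2 rose and 3 fell, in Crx-/- none rose and 4 fell, and in Nrl-/- 1 rose and 2 fell. The list medians were 0.51, -0.15, -0.36 and -0.10, beside table medians of 0.13, -0.14, -0.04 and 0.17. Rsph9, a radial spoke protein, rose by 1.19 in CrxRip/+ (adjusted p = 0.000354) and by 1.15 in Nrl-/- (adjusted p = 0.000405). Wdr78, a component of axonemal dynein, fell in CrxRip/+ (-0.46), CrxRip/Rip (-1.01) and Crx-/- (-2.06; adjusted p = 0.0042, 3.75e-05 and 8.41e-07), with 3.2 and 3.4 FPKM in Crx-/- against 16.8 and 17.0 FPKM in WT. Dnah9, an outer-arm dynein, fell in CrxRip/Rip (-1.28, adjusted p = 0.00101) and in Crx-/- (-1.52, adjusted p = 0.000362). Dnaic2, the neighbour of Kif19a, rose by 0.94 in CrxRip/+ (adjusted p = 0.0003) and by 0.49 in CrxRip/Rip (adjusted p = 0.00817), the last of which was lost without WT replicate 2 (0.44). Its difference of -0.12 in Nrl-/- was not called (adjusted p = 0.429). The calls of Rfx2 and Dnah9 in CrxRip/+, Kif9 and Stk36 in CrxRip/Rip, Dnaic2 in Crx-/- and Rfx2 in Nrl-/- were each lost when 1 sample was left out. The 7 motile cilium genes in the table thus went in mixed directions, and the others of the 40 were not seen.

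Of 48 kinesin symbols, 6 were in the P21 table, and the others were not seen. More of the 6 fell than rose in each mutant. In CrxRip/+ 4 fell and 2 rose, in CrxRip/Rip 4 fell and 1 rose, in Crx-/- 5 fell and none rose, and in Nrl-/- 3 fell and 2 rose. Lower calls made up 35.0%, 44.3%, 41.5% and 31.8% of the table. The kinesin medians were -0.58, -0.75, -0.87 and -0.18, beside table medians of 0.13, -0.14, -0.04 and 0.17. Kifc3, a minus-end-directed kinesin, had 3.2 and 4.2 FPKM in CrxRip/+, 1.8 and 1.6 FPKM in CrxRip/Rip, 2.3 and 2.4 FPKM in Crx-/- and 5.3 and 5.4 FPKM in Nrl-/-, against 8.3 and 8.4 FPKM in WT. It fell in all 4, with differences of -1.0, -1.79, -1.48 and -0.56 (adjusted p = 8.96e-05, 2.05e-06, 7e-06 and 0.00246). Kif21b, a kinesin of neurons, fell in all 4 mutants, with differences of -1.05 to -0.72 (adjusted p from 3.15e-05 to 0.000373), and Kif4, a chromosome-associated kinesin, fell in CrxRip/+, CrxRip/Rip and Crx-/- (-1.03 to -0.92) and rose by 0.77 in Nrl-/-. Kif1b, which carries synaptic vesicle precursors, fell in CrxRip/Rip (-0.55), Crx-/- (-0.83) and Nrl-/- (-0.86). Its call in CrxRip/+ (-0.33) was lost without CrxRip/+ replicate 1 (-0.21), without WT replicate 1 (-0.37) and without WT replicate 2 (-0.30). The calls of Kif9 in CrxRip/Rip and of Kif22 in Crx-/- were likewise lost when 1 sample was left out.

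For Cckbr, the table held 1 of 19 other genes of cholecystokinin and gastrin signalling, the ligand gene Cck. Cck measured 2.8 and 4.2 FPKM in CrxRip/+, 1.9 and 1.6 FPKM in CrxRip/Rip, 4.5 and 3.1 FPKM in Crx-/- and 4.5 and 3.9 FPKM in Nrl-/-, against 5.0 and 4.7 FPKM in WT. All mutant samples were below both WT samples, and the difference of -1.09 in CrxRip/Rip was called (adjusted p = 0.000661), while -0.40, -0.30 and -0.17 in CrxRip/+, Crx-/- and Nrl-/- were not (adjusted p = 0.0813, 0.161 and 0.424). Without CrxRip/+ replicate 2 the difference there was called at -0.62. The receptor gene was thus higher in every mutant while its ligand gene was called lower in CrxRip/Rip.

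Of 44 other peptide receptors, 4 were in the table, and 2 rose and 1 fell in CrxRip/+, in Crx-/- and in Nrl-/-, and 1 rose and 1 fell in CrxRip/Rip. The medians were 0.31, -0.03, 0.18 and 0.34 in CrxRip/+, CrxRip/Rip, Crx-/- and Nrl-/-. Hcrtr1, an orexin receptor, had 4.7 and 6.1 FPKM in CrxRip/+, 0.7 and 0.4 FPKM in CrxRip/Rip, 18.1 and 18.0 FPKM in Crx-/- and 3.2 and 3.5 FPKM in Nrl-/-, against 0.7 and 0.7 FPKM in WT. It rose by 1.90, 3.49 and 1.35 in CrxRip/+, Crx-/- and Nrl-/- (adjusted p = 5.69e-06, 2.07e-07 and 3.8e-05) and was not called in CrxRip/Rip (-0.14, adjusted p = 0.36). Its mean was highest in Crx-/- and lowest among mutants in CrxRip/Rip, the 2 genotypes of the lower pair of Cckbr. Glp2r, the receptor for glucagon-like peptide-2, fell in all 4 mutants, with 5.6 and 4.7 FPKM in CrxRip/+, 0.9 and 0.9 FPKM in CrxRip/Rip, 1.2 and 1.3 FPKM in Crx-/- and 24.2 and 22.4 FPKM in Nrl-/-, against 39.9 and 41.1 FPKM in WT. Vipr2, a receptor for vasoactive intestinal peptide, rose by 1.34 in CrxRip/Rip and by 0.44 in CrxRip/+ (adjusted p = 1.92e-06 and 0.00176). Ednrb, an endothelin receptor, rose by 0.80 in Nrl-/- (adjusted p = 0.00627), a call that was lost without WT replicate 2 (0.65). The call of Vipr2 in Crx-/- was lost without any 1 of the samples compared.

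For Myocd, 6 of 39 symbols of SRF and myocardin targets and partners were in the P21 table, and none of the 10 markers of smooth muscle and pericytes was. In CrxRip/+ 4 rose and 2 fell, in CrxRip/Rip 2 rose and 3 fell, in Crx-/- 2 rose and 2 fell, and in Nrl-/- 4 rose and 2 fell, with medians of 0.59, -0.24, 0.07 and 0.59. The genes that rose in all 4 mutants were Egr1 and Fos, immediate early genes that many stimuli switch on. Egr1 had 64.0 and 54.5 FPKM in CrxRip/+, 44.2 and 57.5 FPKM in CrxRip/Rip, 54.3 and 59.0 FPKM in Crx-/- and 27.8 and 58.8 FPKM in Nrl-/-, against 3.8 and 3.8 FPKM in WT, differences of 3.65, 3.42, 3.59 and 3.11 (adjusted p = 1.12e-05, 1.17e-05, 9.56e-06 and 2.72e-05). Fos rose by 0.93, 0.40, 1.74 and 0.69.

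Mylk and Lmod1, both genes of smooth muscle contraction, were called higher in CrxRip/+ and Nrl-/- and lower in CrxRip/Rip. Mylk, the myosin light chain kinase of smooth muscle, had 35.9 and 27.1 FPKM in CrxRip/+, 6.7 and 7.6 FPKM in CrxRip/Rip, 17.2 and 20.3 FPKM in Crx-/- and 62.3 and 66.8 FPKM in Nrl-/-, against 17.0 and 20.0 FPKM in WT. It rose by 0.73 in CrxRip/+ and 1.75 in Nrl-/- and fell in CrxRip/Rip (-1.26; adjusted p = 0.00261, 1.62e-05 and 9.05e-05). Lmod1, an actin nucleator of smooth muscle, rose by 0.44 in CrxRip/+ and by 0.49 in Nrl-/- (adjusted p = 0.00809 and 0.00497), and lay between 0.6 and 2.3 FPKM in all 10 samples. Mef2c, a transcription factor of muscle and neurons, fell to 1.0 to 1.4 FPKM in all 8 mutant samples, against 17.4 and 16.0 FPKM in WT, differences of -3.08, -2.94, -3.14 and -3.01 in CrxRip/+, CrxRip/Rip, Crx-/- and Nrl-/- (adjusted p from 6.32e-08 to 9.43e-08). The calls of Lmod1 in CrxRip/Rip and of Synpo2 in Nrl-/-, both lower, were lost when 1 sample was left out.

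For Tmem26, the table held 1 of 12 other beige fat markers, Cited1, a transcriptional coregulator. Cited1 had 12.5 and 10.8 FPKM in CrxRip/+, 7.8 and 12.4 FPKM in CrxRip/Rip, 4.1 and 3.9 FPKM in Crx-/- and 5.9 and 6.2 FPKM in Nrl-/-, against 1.3 and 1.4 FPKM in WT. It rose in all 4 mutants, by 2.43, 2.21, 1.09 and 1.58 (adjusted p = 6.86e-06, 8.09e-06, 0.000544 and 7.64e-05). Unlike Tmem26 it rose in Crx-/-, and its order of genotype means was that of Myocd.

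**Figure D5:**
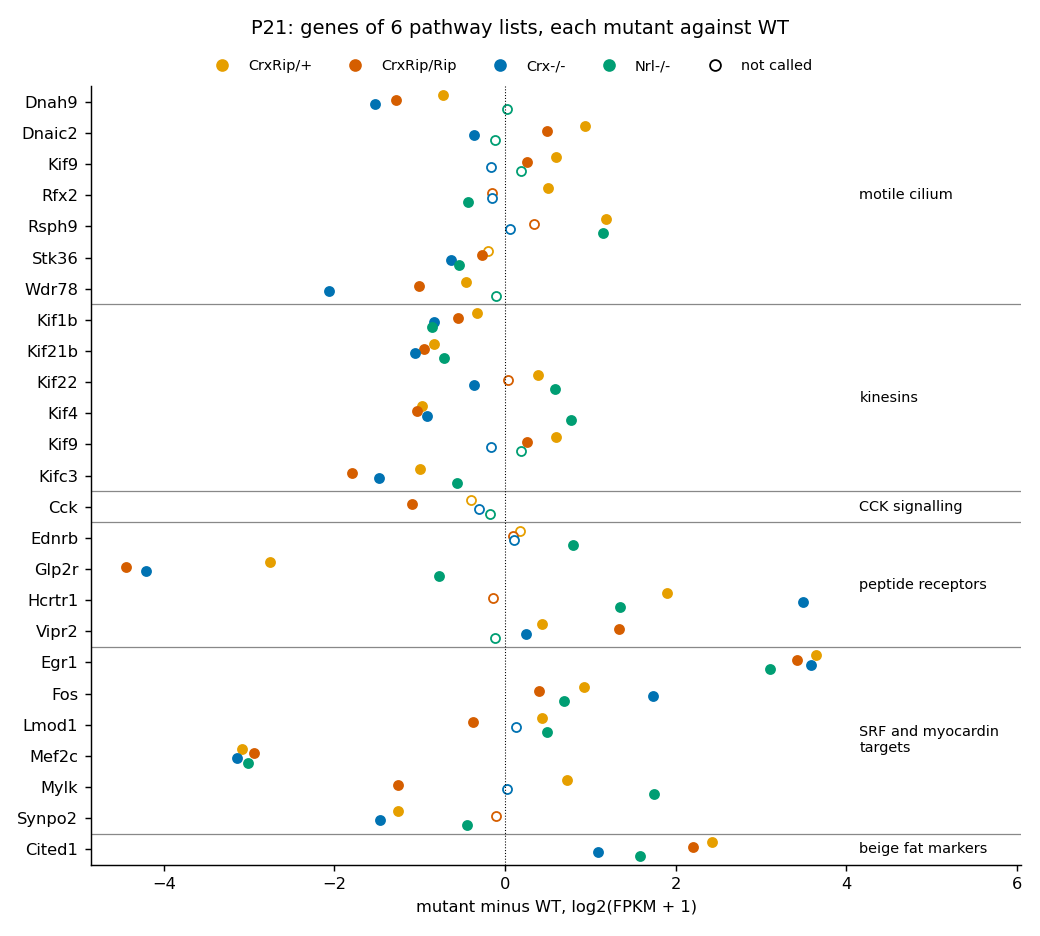
Difference to WT in log2(FPKM + 1) at P21 for the genes of 6 lists (rows) in each mutant (colours), filled where the adjusted limma p was under 0.05 and open where it was not. The 6 kinesins in the table lie mostly left of 0, Egr1 lies between 3.11 and 3.65 in all 4 mutants, Mef2c between -3.14 and -2.94, and Cited1 between 1.09 and 2.43.

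At P2 the tables offered 1 of these lists. For CrxRip/+, CrxRip/Rip, Crx-/- and Nrl-/-, in that order, 16.4%, 27.0%, 29.9% and 83.6% of the 566 genes were called, of which 12.7%, 21.2%, 20.7% and 64.7% of the table were lower and 3.71%, 5.83%, 9.19% and 18.9% higher. These shares depend on the processing: without WT replicate 2 the 93 calls in CrxRip/+ became 55, without 1 sample the 169 calls in Crx-/- became 72 to 92 whichever of the 4 samples compared was left out, and median-of-ratios scaling turned the 473 calls in Nrl-/- into 296. The SRF list had 3 genes in the table, and in each mutant 2 of them fell and none rose, with list medians of -0.55, -0.62, -0.42 and -1.18 beside table medians of -0.02, -0.06, -0.14 and -0.76. Under median-of-ratios scaling both calls in Crx-/- were lost (Egr1 -0.27, Mylk -0.30), and Mylk was called higher in Nrl-/- (1.01, against 0.17 and not called). Egr1 was at 0.9 and 0.9 FPKM in CrxRip/+, 0.7 and 0.7 FPKM in CrxRip/Rip, 2.9 and 2.1 FPKM in Crx-/- and 1.1 and 1.0 FPKM in Nrl-/-, against 3.4 and 3.9 FPKM in WT. It fell in CrxRip/+, CrxRip/Rip and Nrl-/-, with differences of -1.29, -1.45 and -1.18 (adjusted p = 0.000298, 3.77e-05 and 5.32e-05), opposite in sign to P21, though the ages were in separate tables and were not tested against each other. Its call in Crx-/- (-0.42, adjusted p = 0.035) was lost without Crx-/- replicate 2 (-0.25), WT replicate 1 (-0.49) or WT replicate 2 (-0.34). Mkl1, which encodes a coactivator of SRF related to myocardin, fell in Nrl-/- (-1.21, adjusted p = 0.000126), with 2.0 and 2.2 FPKM there against 6.3 and 6.0 FPKM in WT. Mylk fell in CrxRip/+ (-0.55) and Crx-/- (-0.44), calls that were lost when 1 sample was left out, and in CrxRip/Rip (-0.62, adjusted p = 0.00245).

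Among markers of other tissues, those of the pigment epithelium were also higher in mutants. Of 11 pigment epithelium markers, 7 were in the P21 table and none of them was at 0 in any sample. Their summed level was 46.2 to 53.7 FPKM in CrxRip/+, 48.2 to 66.0 FPKM in CrxRip/Rip, 52.8 to 88.2 FPKM in Crx-/- and 41.7 to 55.9 FPKM in Nrl-/-, against 10.8 to 23.1 FPKM in WT. In that order of mutants 4, 6, 7 and 6 of the 7 rose, where higher calls made up 39.5%, 36.3%, 39.8% and 40.4% of the table. The list medians were 1.07, 1.31, 1.53 and 1.11, beside table medians of 0.13, -0.14, -0.04 and 0.17. All 8 mutant samples were above WT, as for Kif19a, Cckbr and Myocd. This was not particular to pigment epithelium, since it also held for the summed markers of bipolar cells, Muller glia and gliosis. Bipolar markers summed to 235.1 to 345.8 FPKM over the mutant samples, against 155.5 and 172.6 FPKM in WT. It did not hold for the markers of rods, cones, horizontal cells, ganglion cells or microglia and immune cells. The sample highest in the pigment epithelium list was a Crx-/- one. In Crx-/- the mean of Kif19a was 6.17 times that of WT, Cckbr 6.8 times, Myocd 49 times and Tmem26 0.538 times. Of 10 endothelial markers, 5 were in the table and summed to 42.0 to 65.2 FPKM over the mutant samples, against 33.5 and 35.0 FPKM in WT. Kdr, a receptor for vascular endothelial growth factor, made up much of that sum, and without it the other 4 had 16.3 and 17.6 FPKM in CrxRip/+, 11.2 and 11.2 FPKM in CrxRip/Rip, 13.9 and 13.4 FPKM in Crx-/- and 24.9 and 22.3 FPKM in Nrl-/-, against 17.8 and 18.3 FPKM in WT. Of the 5, 1, 1, 1 and 2 rose and 0, 3, 2 and 0 fell in CrxRip/+, CrxRip/Rip, Crx-/- and Nrl-/-, with medians of -0.07, -0.50, -0.24 and 0.34. No lens marker was called, and the lens medians were -1.15, -0.64, -1.17 and -2.31. The part of these tissues in the levels of the 4 genes was not tested.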

How the data were processed

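RNA sequencing of whole retina gave 1 table per age. Per the file headers each sample's value is an FPKM, which the authors rounded to 0.1. The authors' log2 fold changes and adjusted p-values are in the same tables, and the submitters' processing notes name DESeq without a version. For aligner, counting, build and annotation the entry is "not given in the sources used here". Every gene listed had passed the authors' threshold in at least 1 comparison, so shares of called genes describe selected genes. FPKM keeps no read count, so depth is unknown and no counting interval was computed.

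limma 3.58.1 (R 4.3.3) was fitted to log2(FPKM + 1) of the 10 samples of an age, 1 term per genotype, with a variance trend. There were 5 residual degrees of freedom plus 3.06 (P21) or 2.95 (P2) from moderation. Two-sided p-values were adjusted over the table (Benjamini-Hochberg). With 2 samples a group the smallest p of an exact permutation test is 0.33. The fit was tested on simulated data. The replicate numbers in the labels were not used to pair samples.

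The 4 genes and the 20 lists were chosen with earlier results of these data known. Genes were named by a rule: the members, the 5 genes of highest Pearson r with each, up to 4 called genes per list with the largest difference and up to 2 uncalled ones, neighbours in a table, and Nrl, Crx and Otx2. Lmod1, Mkl1 and the genes of lost calls were named after their values were seen. A gene that the rule names is not reported here. Alternatives were a pseudocount of 0.1, median-of-ratios scaling, no variance trend, a mean of at least 2 FPKM, pairwise fits, a replicate block, leaving out each sample, and other measures of likeness. List genes outside the tables were not analysed here.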

Additional observations from a re-analysis of the deposited data

How the results depend on the processing

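With 0.1 in place of the added 1, the differences to WT grew without changing sign. Kif19a then had 4.58, 5.21, 2.53 and 1.75 in CrxRip/+, CrxRip/Rip, Crx-/- and Nrl-/-, Myocd 5.69, 5.53, 4.64 and 4.89, and Tmem26 3.74, 3.77, -0.74 and 2.20. Median-of-ratios scaling moved Myocd to 2.48 in Crx-/- and 2.55 in Nrl-/-. That scaling shifted the median of all genes by 0.14 in CrxRip/Rip at P21, by 0.15 in Crx-/- at P2 and by 0.69 in Nrl-/- at P2, where it left 296 called genes in place of 473. Leaving out 1 sample at a time changed no member's sign, and the widest range was that of Kif19a in CrxRip/Rip (3.89 to 4.71). At P2 it gave 55 to 74 called genes for CrxRip/+, in place of 93, with 55 without WT replicate 2, and 72 to 92 for Crx-/-, in place of 169. Of the 5 genes named for likeness, Spearman's rho kept 1 for Kif19a, 1 for Cckbr, 2 for Myocd and 3 for Tmem26, and r over genotype means kept 2 for Myocd and 2 for Tmem26. Same-numbered replicates of different genotypes had correlations of -0.30 to 0.33 between their deviations, and 7 of 20 exceeded 0.1. With a replicate block, 1112, 1200, 1209 and 1068 genes were called at P21 in CrxRip/+, CrxRip/Rip, Crx-/- and Nrl-/-, in place of 1115, 1207, 1217 and 1081, and 101, 155, 203 and 481 at P2, in place of 93, 153, 169 and 473. Single genes were followed over all alternatives for the 6 lists of genes that work with a member. A called difference kept its call in 744 cases and lost it in 59, an uncalled one stayed uncalled in 246 and was called in 7, and no called difference reversed. The calls of the cell and tissue markers were not followed in this way. The cause of these changes was not tested. Rounding to 0.1 FPKM limits Myocd in WT and Tmem26 in Crx-/-, and 2 samples per group limit every comparison.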

Other observations

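The 13 genes with at least 4 times the WT mean in all 4 mutants at P21 were Cckbr, Myocd, Chrnb4, Egr1, Fabp7, Kcng1, Plec, Prtg, Rbp4, Rerg, Rgs22, Rpe65 and Spsb1, a set picked after the values were seen. Prtg, protogenin, a cell-surface protein of the early embryo, was the 1 gene of the table that averaged under 1 FPKM in WT and at least 5 FPKM in every mutant. Its differences to WT in log2(FPKM + 1) were 1.62, 1.63, 2.16 and 2.46 for CrxRip/+, CrxRip/Rip, Crx-/- and Nrl-/-. Chrnb4, a nicotinic receptor subunit, had its largest difference in CrxRip/Rip, at 4.56, against 1.59, 2.68 and 2.64 for the CrxRip/+, Crx-/- and Nrl-/- genotypes.

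Kif9, a kinesin of motile cilia, was among the 19 genes that shared the pattern of Tmem26, above WT in CrxRip/+, CrxRip/Rip and Nrl-/- and below it in Crx-/-. Its samples were at 3.1 and 3.4 FPKM in CrxRip/+, 2.3 and 2.4 FPKM in CrxRip/Rip, 1.5 and 1.5 FPKM in Crx-/- and 2.0 and 2.4 FPKM in Nrl-/-, against 1.7 and 1.9 FPKM in WT, so the steps were small and those in Crx-/- and Nrl-/- were not called.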
